A study of Mus musculus with 23 samples.

Results

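Glutathione is the main thiol of the cell, and the genes described here make it, recycle it, break it down outside the cell and spend it on peroxides. The members are 10 genes: Slc7a11, Gclc, Gclm, Gss, Gsr, Ggt1 and the peroxidases Gpx1, Gpx2, Gpx3 and Gpx4. They were chosen by name, after Ggt1 had been seen higher in tumors with neutralized IL-38, and all 10 were found by symbol among 47643 gene identifiers. All 10 passed the filter on low values in each comparison, a mean of at least 5 normalized counts over the compared libraries, but Gpx2 passed in the knockout and blockade comparisons only through the group where it was higher.

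The libraries came from dissociated tumors of female PyMT mice, in which the polyoma virus middle T oncoprotein drives mammary carcinoma, and were made with a 3′ mRNA method. In a neutralization experiment, PyMT WT mice received a human IgG1 isotype control (IgG, n = 5) or an antibody to IL-38 (anti-IL-38, n = 6), starting when the first tumor had reached a set size. In a second experiment, which started at a fixed age, PyMT WT mice received Armenian hamster IgG (WT_IgG, n = 4), and PyMT IL-38 KO mice received the same IgG (KO_IgG, n = 4) or an antibody to the γδ T-cell receptor (KO_gdTCR, n = 4). Injections were given weekly for 5 weeks in every group. All mice carried the PyMT transgene, both groups of the γδ TCR blockade comparison lacked IL-38, and no WT tumors with the anti-γδ TCR antibody were analysed here. The labels number the samples of a group but do not say that they came from separate mice, so p-values measure the spread between these samples.

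Cystine enters the cell in exchange for glutamate through system xc-, of which Slc7a11 is the transport subunit. Glutamate cysteine ligase, made of the catalytic subunit Gclc and the modifier subunit Gclm, joins glutamate to cysteine in the rate-limiting step, and Gss adds glycine. Glutathione peroxidases oxidize glutathione while they reduce peroxides, Gsr reduces the oxidized form back, and Ggt1, at the cell surface, cleaves the glutamyl bond of exported glutathione. In tumors the pathway is known for its control by the transcription factors NRF2 and ATF4, and Gpx4, which reduces lipid peroxides in membranes, is the enzyme that holds back ferroptosis.

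The sequence just before the start of Slc7a11 is shown because this gene had the widest range of levels among the members and is a textbook target of ATF4. The 250 bases upstream of its RefSeq start site (GRCm38.p6, chr3:50443614-50443863, minus strand) read, with matches to the amino acid response motif TGATGCAA on either strand in capitals, as follows.
Slc7a11: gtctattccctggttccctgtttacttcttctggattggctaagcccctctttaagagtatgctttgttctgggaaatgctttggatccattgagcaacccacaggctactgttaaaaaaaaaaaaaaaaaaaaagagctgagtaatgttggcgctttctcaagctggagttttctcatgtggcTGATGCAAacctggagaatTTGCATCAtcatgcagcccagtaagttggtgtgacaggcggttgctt
The forward match lies 66 to 59 bases and the reverse match 47 to 40 bases before the start. Among RefSeq windows of 250 bases before to 50 after a start, 0.895% of 32851 held this motif on either strand. Of the members, 8 of 10 had such a window, and in the other 7 of these 8 the motif was not found. TGACNNNGC, the core of the antioxidant response element bound by NRF2, was found at 3 of 4 Ggt1 start sites and at Gclm, against 12.4% of all windows. These matches describe letters, not binding.

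The members also include 4 selenoproteins, shown because the codon that sets them apart is a stop codon elsewhere. In the GENCODE M21 models (GRCm38), Gpx1 to Gpx4 each have a TGA inside the reading frame that is read as selenocysteine, whereas Gpx5 to Gpx8 have none annotated. The coding strand around each is given with the codon in capitals and 15 bases on either side.
Gpx1: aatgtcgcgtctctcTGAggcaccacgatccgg
Gpx2: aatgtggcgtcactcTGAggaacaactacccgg
Gpx3: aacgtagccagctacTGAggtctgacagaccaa
Gpx4: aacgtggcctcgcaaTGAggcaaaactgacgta
The codon is number 47 of 201 in Gpx1, at chr9:108339451-108339453 on the plus strand, and number 40 of 190 in Gpx2, at chr12:76795256-76795258 on the minus strand. It is number 73 of 226 in Gpx3, at chr11:54907256-54907258 on the plus strand, and number 129 of 253 in the longest Gpx4 form, at chr10:80054737-80054739 on the plus strand. Outside the codon, 11 positions of these windows of 33 bases are the same in all 4 genes, the 2 directly after the codon among them.

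Levels were compared across the 5 groups as CPM (counts per 1000000 reads that fell on genes), and only within a gene, since reads were not set per length. Between 6273049 and 15879164 reads were counted per library. The 5 libraries numbered 19 to 23 in the deposited column names, which are KO_IgG replicate 4 and the 4 KO_gdTCR libraries, stood apart: they had 6273049 to 8794202 reads against 10138353 or more in the other 18, and 1.31 to 1.98% of their reads lay on processed pseudogenes, against 0.0943 to 0.191%. Differences that rest on these libraries are given with and without KO_IgG replicate 4, gene by gene for the members and as counts for most other genes. Of the deposited column names, only that of KO_gdTCR replicate 3 also carries the mark rep, whose meaning is not given in the sources used here. That library had the fewest reads, 6273049. No read was counted on Il1f10, the gene of IL-38, in any of the 23 libraries, and the genotype labels therefore have no check from that gene. All 8 luminal epithelial markers had reads in every group, with summed levels of 1646 to 4138 CPM, as did all 6 macrophage markers. The macrophage sum was 1393 to 2876 CPM in the 18 other libraries and 570 to 919 CPM in the 5 that stood apart, so it was low in the same libraries as Slc7a11, Gclm and Gpx1. Lists of neighboring genes that were lower in the blockade were lower in the 4 KO_gdTCR libraries, and their level in KO_IgG replicate 4 is not given here. The part of the macrophage sum in those results was not tested. In whole tumors, fewer cells of a type and less RNA per cell cannot be told apart.

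**Figure D1:**
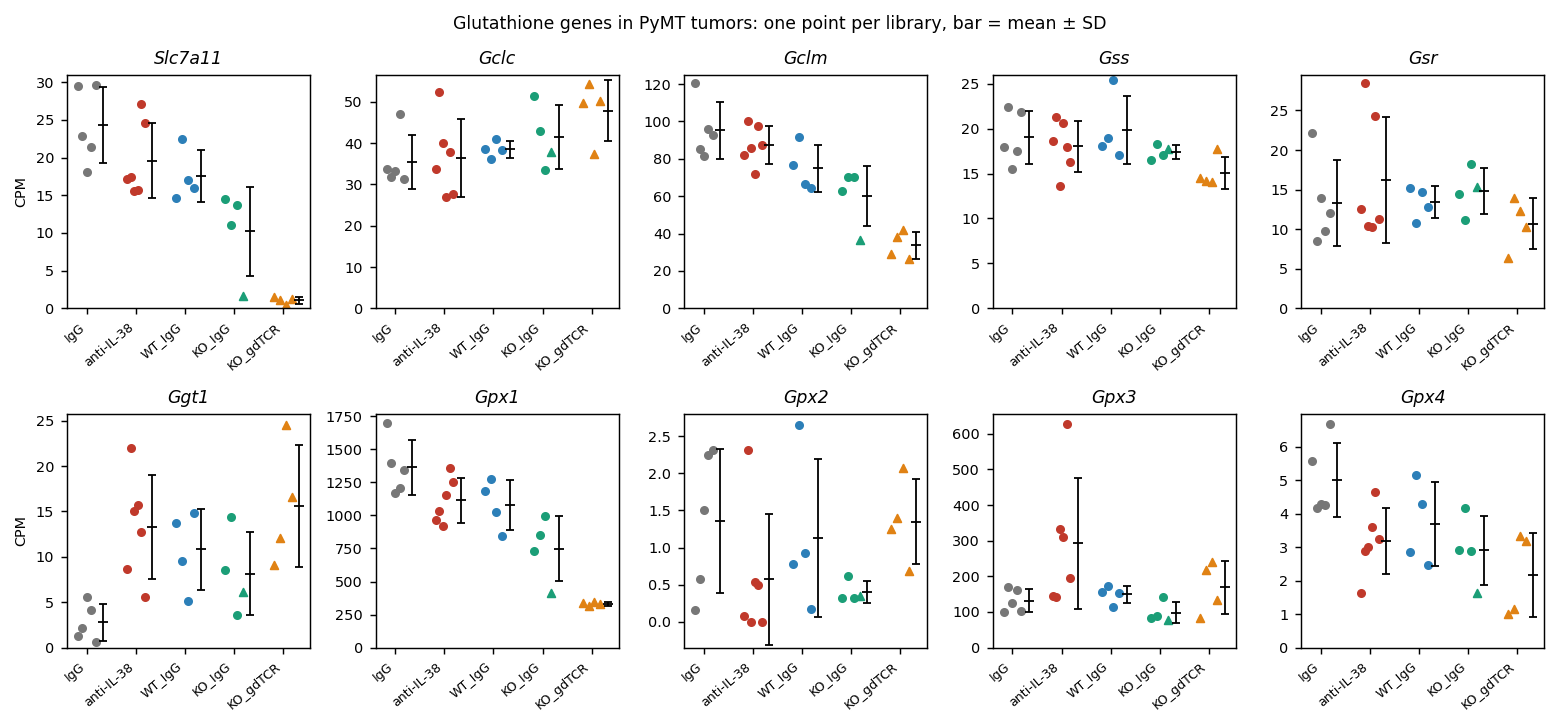
Level of the 10 glutathione genes (y axis, CPM, linear) in each of 23 tumor libraries by group (x axis). Points are libraries, triangles are those numbered 19 to 23, and bars give mean ± SD; for Slc7a11, Gpx1 and Gclm the triangle of KO_IgG lies beside those of KO_gdTCR, and for Ggt1 the IgG group has the lowest mean, 2.77 CPM.

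Ggt1 (chr10:75561604-75586200, plus strand, GRCm38) was lowest in the IgG group of the neutralization experiment, at 1.32, 2.17, 5.601, 4.19 and 0.596 CPM in replicates 1 to 5, from 8 to 82 reads. With anti-IL-38 it stood at 8.64, 22.0, 15.05, 15.7, 12.8 and 5.62 CPM. By normalized counts 5 of 6 anti-IL-38 tumors were above every IgG tumor, and replicate 6 lay within the IgG range. The fitted difference was 2.53 (SE 0.51) on the log2(normalized count + 1) scale, a 5.77-fold higher level, which is a description because this difference chose the set. The 8 luminal epithelial markers had a median sum of 2080 CPM in IgG (1646 to 3343) and 2986 CPM in anti-IL-38 (2371 to 4138). In these 2 groups the tumor with the most Ggt1, IgG replicate 3 and anti-IL-38 replicate 2, had the highest luminal sum. The tumor with the least, IgG replicate 5 and anti-IL-38 replicate 6, had the lowest. KO_IgG went the same way, with replicate 2 highest and replicate 3 lowest for both. The other groups went against it. In WT_IgG replicate 3 had the least Ggt1 and the highest luminal sum (3363 CPM), and in KO_gdTCR replicate 3 had the most Ggt1 and the lowest sum (2993 CPM). The part of the luminal markers in the Ggt1 difference was not tested.

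The 3 other groups did not share the low level of these controls. Ggt1 was at 13.7, 9.52, 5.14 and 14.8 CPM in WT_IgG, at 8.56, 14.3, 3.59 and 6.15 CPM in KO_IgG, and at 9.11, 12.03, 24.5 and 16.6 CPM in KO_gdTCR. WT_IgG tumors, which have intact IL-38 and received isotype antibody as the IgG tumors did, had a mean of 10.8 ± 4.42 CPM (SD, n = 4) against 2.77 ± 2.07 (n = 5). WT_IgG minus IgG was 2.09 (SE 0.57), a 4.26-fold higher level, with 3 of 4 WT_IgG tumors above every IgG tumor. This contrast uses the same 5 IgG libraries as the one that chose Ggt1 and is given without a test; experiment, isotype and schedule cannot be told apart in it. In order of mean, KO_gdTCR (15.6), anti-IL-38 (13.3), WT_IgG (10.8) and KO_IgG (8.16) each differed from the next by less than the larger SD of the pair, and KO_IgG differed from IgG by more.

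Between KO_IgG and WT_IgG, Ggt1 differed by -0.44 (SE 0.42; limma, adjusted p = 0.687), and by -0.37 without KO_IgG replicate 4. Between KO_gdTCR and KO_IgG it was 2.26-fold higher (log2 1.17, SE 0.43; adjusted p = 0.141), with 2 of 4 blockade tumors above every control. Without KO_IgG replicate 4 this difference was 1.12 (SE 0.46; adjusted p = 0.148). Without KO_gdTCR replicate 3, the library marked rep and the one with the most Ggt1 in its group, it was 0.88 (SE 0.42, limma, adjusted p = 0.286). Against KO_IgG replicate 4 alone, the control that shares the low depth and pseudogene share of the blockade libraries, the mean difference was 1.34.

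By Pearson correlation of log2(normalized count + 1) over 19 libraries, the genes with the pattern most like that of Ggt1 among 16352 were H2-Q6 (r = 0.85), Tmem125 (r = 0.83), Ttc22 (r = 0.82), Fndc10 (r = 0.82) and 9230102O04Rik (r = 0.81). These points share libraries and depth, and H2-Q6 belongs to a family of near-identical class I genes among which reads may be split. H2-Q6 averaged 1.06 ± 0.649 CPM in IgG, 6.69 ± 4.21 in anti-IL-38, 6.42 ± 6.56 in WT_IgG and 2.80 ± 3.09 in KO_IgG (SD). It averaged 8.21 ± 4.97 CPM in KO_gdTCR, which was not among the 19 libraries. Single tumors ranged from 1.15 to 15.5 CPM in WT_IgG and from 0.872 to 7.41 in KO_IgG, so these groups overlapped widely.

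Slc7a11 (chr3:49892526-50443614, minus strand, GRCm38), the cystine importer whose upstream sequence is shown above, spanned 22.7-fold between its highest and lowest group mean. It was at 29.5, 22.9, 18.1, 21.5 and 29.6 CPM in IgG and at 14.6, 22.5, 17.05 and 15.9 CPM in WT_IgG. KO_IgG tumors had 14.5, 11.1 and 13.7 CPM in replicates 1 to 3 but 1.62 CPM, from 14 reads, in replicate 4. KO_gdTCR tumors had 1.498, 1.05, 0.478 and 1.25 CPM, from 3 to 12 reads. All 18 libraries with numbers up to 18 were thus at 11.1 CPM or more, and all 5 with numbers 19 to 23 at 1.62 CPM or less.

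KO_gdTCR minus KO_IgG for Slc7a11 was -2.68 (SE 0.65), a 6.42-fold lower level that did not pass the threshold (limma, adjusted p = 0.0657). Without KO_IgG replicate 4 it was -3.39 (SE 0.38; adjusted p = 9.28e-05), and with DESeq2 on the recovered reads of all 8 libraries it was -3.07 (adjusted p = 0.000144). Against KO_IgG replicate 4 alone, the blockade mean differed by -0.55 on the log2 scale, and replicate 4 itself differed by -2.84 from the mean of the other 3 controls. The macrophage sum given above followed the same order, at 1393 to 1871 CPM in KO_IgG replicates 1 to 3, 724 CPM in replicate 4 and 570 to 919 CPM in KO_gdTCR. With 1 control among the libraries numbered 19 to 23 there is no test within them. Leaving out replicate 4 leaves every control numbered 16 to 18 and every blockade library 20 to 23, so blockade and this library property cannot be told apart there.

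The knockout comparison for Slc7a11 rested on the same library. KO_IgG minus WT_IgG was -1.12 (SE 0.57; adjusted p = 0.443) with replicate 4 and -0.39 (SE 0.21; adjusted p = 0.433) without it. In the neutralization experiment anti-IL-38 minus IgG was -0.27 (SE 0.18), with anti-IL-38 tumors at 15.5 to 27.1 CPM, of which 4 of 6 lay below every control by normalized counts.

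Gclm (chr3:122245557-122270732, plus strand), the modifier subunit of glutamate cysteine ligase, had the same order of group means. It was at 81.7 to 120.4 CPM in IgG, 72.1 to 100.035 in anti-IL-38 and 64.4 to 91.9 in WT_IgG. KO_IgG had 62.7, 70.4, 70.2 and, in replicate 4, 36.8 CPM, and KO_gdTCR had 28.8, 38.1, 41.8 and 26.3 CPM. KO_gdTCR minus KO_IgG was -0.63 (SE 0.24; adjusted p = 0.160), and without KO_IgG replicate 4 it was -0.83 (SE 0.21; adjusted p = 0.0208). Replicate 4 and the mean of the blockade tumors differed by -0.04 on the log2 scale. These were again the libraries with the low macrophage sum.

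Gclc (chr9:77754535-77794485, plus strand), the catalytic partner of Gclm, did not follow it. Group means lay between 35.4 and 47.9 CPM, with the lowest in IgG and the highest in KO_gdTCR, and every pair of neighbours in that order differed by less than the larger SD. In the blockade comparison Gclc was 1.31-fold higher (log2 0.39, SE 0.15; adjusted p = 0.173), with 3 of 4 blockade tumors above every control, and 0.44 above KO_IgG replicate 4. Without that library it was 0.37 (SE 0.17; adjusted p = 0.196), and by library totals 0.21 (SE 0.18; adjusted p = 0.499). The 2 subunits thus had fitted differences of opposite sign in the same 8 tumors; the difference between them was not tested.

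Gss (chr2:155563181-155592810, minus strand), glutathione synthetase, was the steadiest member, with group means of 15.1 to 19.9 CPM and fitted differences between -0.15 and -0.03 in all 4 comparisons. Its interval in the blockade comparison ran from -0.38 to 0.31. Gsr (chr8:33652523-33698163, plus strand), glutathione reductase, had group means of 10.7 to 16.2 CPM and passed no threshold, with adjusted p of 0.767 in the knockout, 0.548 in the blockade (-0.32, SE 0.27) and 0.968 between the control cohorts. Without KO_IgG replicate 4 the blockade differences of Gss and Gsr were -0.0032 (SE 0.18) and -0.28 (SE 0.30). The spread of Gsr within a group was largest with anti-IL-38, where replicates 2 and 5 stood at 28.4 and 24.3 CPM and the other 4 at 10.3 to 12.6.

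**Figure D2:**
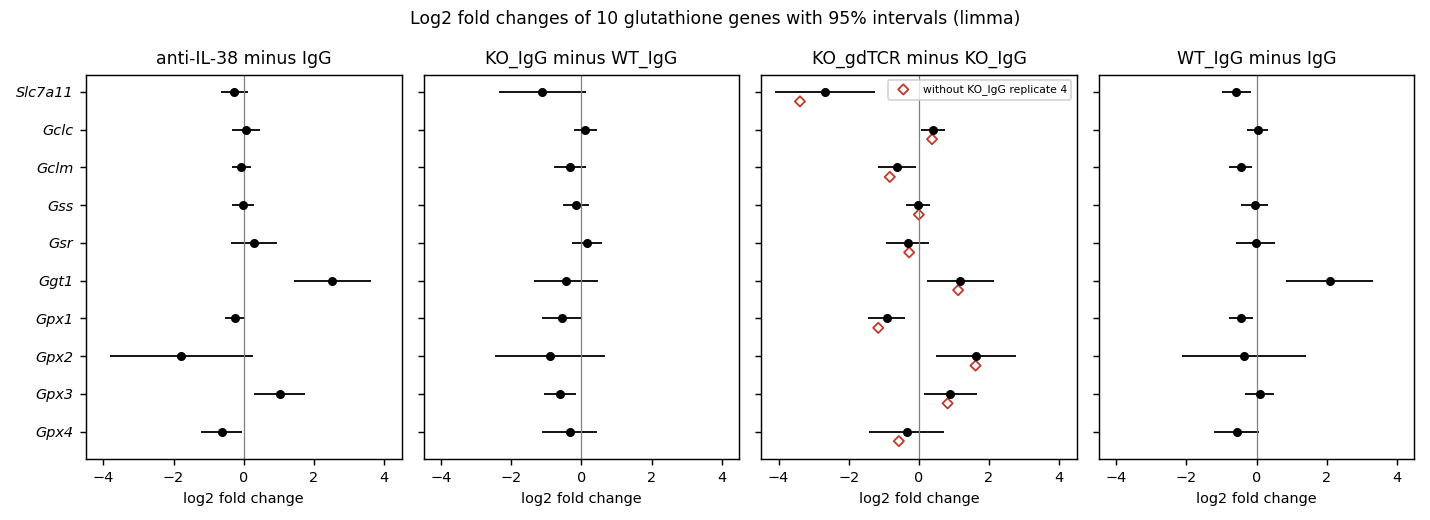
Log2 fold change (x axis) of the 10 glutathione genes (y axis) in the 4 comparisons, with the 95% interval of the limma fit; open diamonds give the blockade values without KO_IgG replicate 4. Slc7a11, Gclm and Gpx1 move further below 0 without that library, to -3.39, -0.83 and -1.16. Intervals of the neutralization, and that of Ggt1 between the control cohorts, are descriptions.

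Among the selenoperoxidases, Gpx1 (chr9:108338903-108340343, plus strand), the cytosolic enzyme, had the most reads, 2188 to 21876 per library. It was at 1699, 1398, 1172, 1205 and 1345 CPM in IgG, at 920 to 1357 in anti-IL-38, and at 1183, 1273, 1028 and 841 in WT_IgG. KO_IgG tumors had 733, 851, 998 and, in replicate 4, 414 CPM. KO_gdTCR tumors had 338, 313, 349 and 333 CPM, below every other library on that scale. By the normalized counts that the fit used, 3 of 4 lay below every KO_IgG tumor and replicate 3 lay just above KO_IgG replicate 4.

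KO_gdTCR minus KO_IgG for Gpx1 was -0.92 (SE 0.24), a 1.89-fold lower level (limma, adjusted p = 0.0666). It was -1.16 (SE 0.17; adjusted p = 0.000662) without KO_IgG replicate 4, -0.98 with DESeq2 (adjusted p = 0.00382), and -0.20 against replicate 4 alone. The macrophage sum was low in the same 5 libraries, as given for Slc7a11. KO_IgG minus WT_IgG was -0.56 (SE 0.26; adjusted p = 0.415) and -0.31 without replicate 4.

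**Figure D3:**
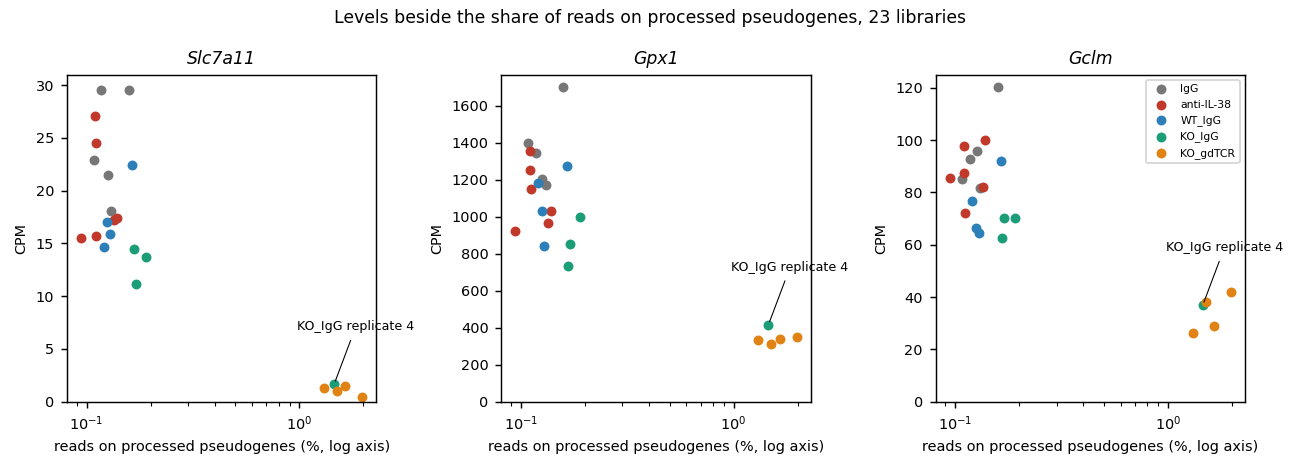
Level of Slc7a11, Gpx1 and Gclm (y axis, CPM) against the share of reads on processed pseudogenes (x axis, %, log axis) in 23 libraries, colored by group. The 5 libraries at 1.31 to 1.98% hold the lowest levels of all 3 genes, and KO_IgG replicate 4 is among them.

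Gpx3 (chr11:54902453-54910377, plus strand), the secreted plasma form, had its highest mean with anti-IL-38. IgG tumors had 98.9, 169, 125, 162 and 104 CPM, and anti-IL-38 tumors 145, 143, 334, 312, 628 and 195 CPM, of which 4 lay above every IgG tumor by normalized counts. The fitted difference was 1.03 (SE 0.34), or 2.04-fold, again a description. The 7 adipocyte markers summed to 40.9 to 93.9 CPM in IgG and 16.9 to 620 CPM in anti-IL-38, with 620 CPM in replicate 4 and 74.6 CPM in replicate 5, and their part in the Gpx3 difference was not tested.

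Gpx3 was not higher when IL-38 was deleted. WT_IgG tumors had 156, 173, 115 and 152 CPM and KO_IgG tumors 83.0, 87.6, 142 and 77.8 CPM, a difference of -0.61 (SE 0.21; unadjusted p = 0.0123, adjusted p = 0.306, limma), with 3 of 4 KO tumors below every WT tumor. Without KO_IgG replicate 4 it was -0.53 (SE 0.21; adjusted p = 0.289). Under γδ TCR blockade it stood at 82.7, 218, 241 and 134 CPM, 1.85-fold above KO_IgG (log2 0.89, SE 0.34; adjusted p = 0.157), and 1.11 above KO_IgG replicate 4. Without that library it was 0.82 (SE 0.36; adjusted p = 0.177), and by library totals 0.71 (adjusted p = 0.205).

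Gpx2 (chr12:76792333-76795554, minus strand), the gastrointestinal form, and Gpx4 (chr10:80047166-80056439, plus strand) had few reads, 0 to 34 and 8 to 90. A processed pseudogene of Gpx2, Gpx2-ps1, is annotated and had 0 to 5 reads per library. None was found for Gpx4 under the symbols searched. How reads shared between copies were counted is not given in the sources used here, so the levels of both genes are uncertain. Gpx2 was at 0.317, 0.617, 0.315 and 0.348 CPM in KO_IgG and at 1.25, 1.40, 2.07 and 0.682 CPM in KO_gdTCR, without overlap, with a fitted difference of 1.63 (SE 0.51), or 3.11-fold, and of 1.61 without KO_IgG replicate 4. This is given as a description, since the KO_IgG mean of 3.62 normalized counts lay below the minimum of 5 and the gene entered the fit through the 14.2 of KO_gdTCR; with a minimum of 20 it was left out. Among all genes tested, 9.54% had groups that did not overlap in this comparison. In anti-IL-38 replicates 3 and 6 Gpx2 had 0 reads, which allows up to 0.238 and 0.296 CPM (3 counts, counting error only).

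Gpx4 was at 4.19 to 6.70 CPM in IgG and 1.64 to 4.67 CPM in anti-IL-38, where 5 of 6 tumors lay below every control by normalized counts and the difference was -0.63 (SE 0.27). WT_IgG had 2.87, 5.15, 4.30 and 2.46 CPM, which was -0.57 (SE 0.30; adjusted p = 0.317) from IgG. The knockout and blockade differences of Gpx4, -0.33 and -0.35, were smaller than their SEs of 0.36 and 0.49, and without KO_IgG replicate 4 they were -0.09 and -0.57 (SE 0.34 and 0.49).

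Counted over the members, the limma fits across all genes called 0 of 10 at an adjusted p under 0.05 in the knockout comparison (0.00604% of 16563 genes called) and 0 of 10 in the blockade (0% of 16481). Between the control cohorts 0 of the 9 members other than Ggt1 were called (0.0994% of 16099 genes). At an unadjusted p under 0.05, 1 of 10 passed in the knockout, Gpx3 with a lower value, against 12.1% of all genes (6.73% higher and 5.4% lower). In the blockade 6 of the 9 members other than Gpx2 passed, against 21.7%: Ggt1, Gclc and Gpx3 higher and Slc7a11, Gclm and Gpx1 lower. Gpx2, also higher, entered this fit only through its higher group and is a description. With it the count was 7 of 10. With a minimum mean of 20, which leaves out Gpx2, 6 of 9 passed. With Gpx2 counted, 5 of 10 passed by library totals, without Gclc and Gpx3, and the count was 4 without KO_IgG replicate 2 or replicate 3. In the control cohorts 3 of 9 passed, Slc7a11 (-0.57), Gclm (-0.46) and Gpx1 (-0.45), all lower in WT_IgG, against 18.6%. In the neutralization, where the rule was applied, 0 of 10 had groups that did not overlap, against 1.04% of 16002 genes.

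Without KO_IgG replicate 4 the blockade fit called 3 of 10 members, Slc7a11, Gclm and Gpx1, all lower, against 14.3% of all genes in either direction and 4.85% lower. DESeq2 on all 8 libraries called 2 of 10, Slc7a11 and Gpx1, against 6.21%. The knockout and blockade comparisons share the KO_IgG libraries, and the knockout and cohort comparisons share WT_IgG, so their values are not independent of each other. KO_IgG replicate 4 lay nearer the blockade mean than the mean of the other 3 controls for 4 of 10 members (Slc7a11, Gpx1, Gclm and Gpx4), and for 56.3% of 16481 genes. The 4 members with higher values in the blockade, Ggt1, Gclc, Gpx2 and Gpx3, were 1.34, 0.44, 1.70 and 1.11 above that library.

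Genes around the pathway were read from lists written with earlier results known. Of 15 genes of NRF2 and its targets, 7 were lower and 1 higher in the blockade at an unadjusted p under 0.05, with a median log2 difference of -0.31 against 0.02 over all genes; 9% of all genes were lower and 12.7% higher by that measure. Of the 6 macrophage markers, Adgre1 and Cd68 also lay below every control in the blockade tumors, while Csf1r, C1qa, C1qb and Mrc1 overlapped. Among all genes tested, 9.54% had groups that did not overlap in these 8 libraries. Without KO_IgG replicate 4, Csf1r and C1qb also lay below every control, and C1qa and Mrc1 still overlapped. The share over all genes without that library is not given here. The libraries lower on these lists are those numbered 20 to 23. Prdx1, a peroxiredoxin, was at 5118 ± 233 normalized counts against 13553 ± 5394 (SD, n = 4 each; adjusted p = 0.0657), and Hmox1, which degrades heme, at 86.2 ± 41.7 against 339 ± 186 (adjusted p = 0.0872). Srxn1, which repairs peroxiredoxins, differed by -1.17 (SE 0.31; adjusted p = 0.0676) and Pgd, of the pentose phosphate pathway, by -0.61 (SE 0.14; adjusted p = 0.0657). In the knockout 3 of these 15 were lower, Me1, G6pdx and Pgd, which supply NADPH, and 0 higher, against 5.4% of all genes lower and 6.73% higher, with a median of -0.37; it was -0.24 without KO_IgG replicate 4. Me1 differed by -0.58 (SE 0.21; adjusted p = 0.338) and G6pdx by -0.37 (SE 0.14; adjusted p = 0.340).

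Of 15 genes of the thioredoxin, peroxiredoxin, catalase and superoxide dismutase list, 6 were lower and 1 higher in the blockade, with a median of -0.32. At the same unadjusted p, 9% of all genes were lower and 12.7% higher. Prdx1, Srxn1 and Txnrd1 are also on the NRF2 list, and Prdx1 and Srxn1 are among the lower genes of both. The counts of these lists are therefore not independent. Txn1, the cytosolic thioredoxin, was at 1624 ± 334 against 2740 ± 564 normalized counts (adjusted p = 0.0657), and Cat, which splits hydrogen peroxide, at 519 ± 129 against 840 ± 144 (adjusted p = 0.0833). Among 26 transferases and other glutathione users, 9 were lower and 0 higher, against the same shares of all genes. Esd, Abcc1, Gsto1 and Glrx, which had the smallest p, each had blockade tumors below every control (limma, adjusted p = 0.0657 for each). Groups did not overlap for 9.54% of all genes. By library totals 8 were lower and 0 higher on the NRF2 list, 9 and 0 on the thioredoxin list, and 10 and 0 among the users. Of all genes, 2822 were then lower and 1403 higher. Abcc1 exports glutathione conjugates and Glrx is a glutaredoxin. Without KO_IgG replicate 4, adjusted calls in the blockade were 5 lower and 1 higher on the NRF2 list, 4 and 1 on the thioredoxin list, and 8 and 1 among the users. On the turnover list they were 1 lower and 2 higher and on the ATF4 list 1 and 1, against 4.85% of all genes lower and 9.45% higher. The 17 genes of these lists that are named for the blockade all had an unadjusted p under 0.05 without that library. Of these, 13 had an adjusted p under 0.05, all but Cat, Psat1, Atf4 and Selenop. They were named for a small p in these same libraries, so this is a description and not a second test. Without replicate 4, blockade and the library numbers 20 to 23 cannot be told apart.

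In the knockout, 5 of 26 glutathione users were lower and 1 higher at an unadjusted p under 0.05, against 5.4% and 6.73% of all genes. Hpgds, a prostaglandin D synthase that uses glutathione, was at 280 ± 44.0 against 414 ± 23.2 normalized counts (n = 4 each; adjusted p = 0.226), and Gstk1 and Gsta3 also lay below every WT tumor (adjusted p = 0.306 and 0.342). Mgst1, a microsomal transferase, was higher without overlap, at 3068 ± 605 against 1855 ± 536 (adjusted p = 0.257). Of the thioredoxin list, Prdx4, the peroxiredoxin of the endoplasmic reticulum, was the 1 gene to pass, with a higher value (0.47, SE 0.19; adjusted p = 0.357). Of the 13 genes of these lists named for the knockout, 12 kept an unadjusted p under 0.05 without KO_IgG replicate 4, all but Prdx4 (0.39, SE 0.19), and 0 had an adjusted p under 0.05. They too were named for a small p in these libraries, so this is a description.

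The ATF4 list had no common direction in the blockade. Of its 14 genes, 2 were lower and 2 higher, with a median of -0.01: the serine synthesis enzymes Psph (-0.88, SE 0.22; adjusted p = 0.0657) and Psat1 (-0.76, SE 0.21; adjusted p = 0.0752) had lower values, and Atf3 (0.70, SE 0.22; adjusted p = 0.0977) and Atf4 itself (0.32, SE 0.13; adjusted p = 0.185) higher ones. In the knockout 0 of 14 passed. Among 18 genes of glutathione turnover and precursor supply, 1 was higher in the blockade, Oplah (0.77, SE 0.23; adjusted p = 0.0842), which recycles 5-oxoproline, and 1 lower, Dpep2 (-1.99, SE 0.83; adjusted p = 0.195), a dipeptidase. In the knockout Glul, glutamine synthetase, was lower in all 4 tumors than in any WT tumor, at 1088 ± 257 against 2114 ± 587 normalized counts (n = 4 each; adjusted p = 0.210). Anpep and Ggt5, which act on extracellular glutathione and its products, had higher values (0.47, SE 0.17, and 0.81, SE 0.29; adjusted p = 0.321 and 0.323). A non-overlap of the groups was seen in 7.06% of all genes there.

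Of 9 genes of selenoprotein synthesis and selenium supply, 0 passed in the knockout, and 1 in the blockade, the selenium carrier Selenop (-0.64, SE 0.24; adjusted p = 0.157). Of 9 ferroptosis partners of Gpx4, 0 passed in the blockade. In the knockout Tfrc, the transferrin receptor, was 2.19-fold higher without overlap (log2 1.13, SE 0.17; adjusted p = 0.103), and Aifm2, which regenerates ubiquinol, was lower without overlap (-0.53, SE 0.16; adjusted p = 0.275). The IgG tumors of the other cohort, with intact IL-38, stood nearer to the KO level for both: Tfrc averaged 1711 ± 944 normalized counts in IgG, 742 ± 205 in WT_IgG and 1585 ± 68.8 in KO_IgG, and Aifm2 279 ± 36.4, 367 ± 26.9 and 256 ± 48.8 (SD). Of the other peroxidases, 2 of 4 were measured highly enough to test, and 0 passed in any of the knockout, blockade and cohort comparisons.

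**Figure D4:**
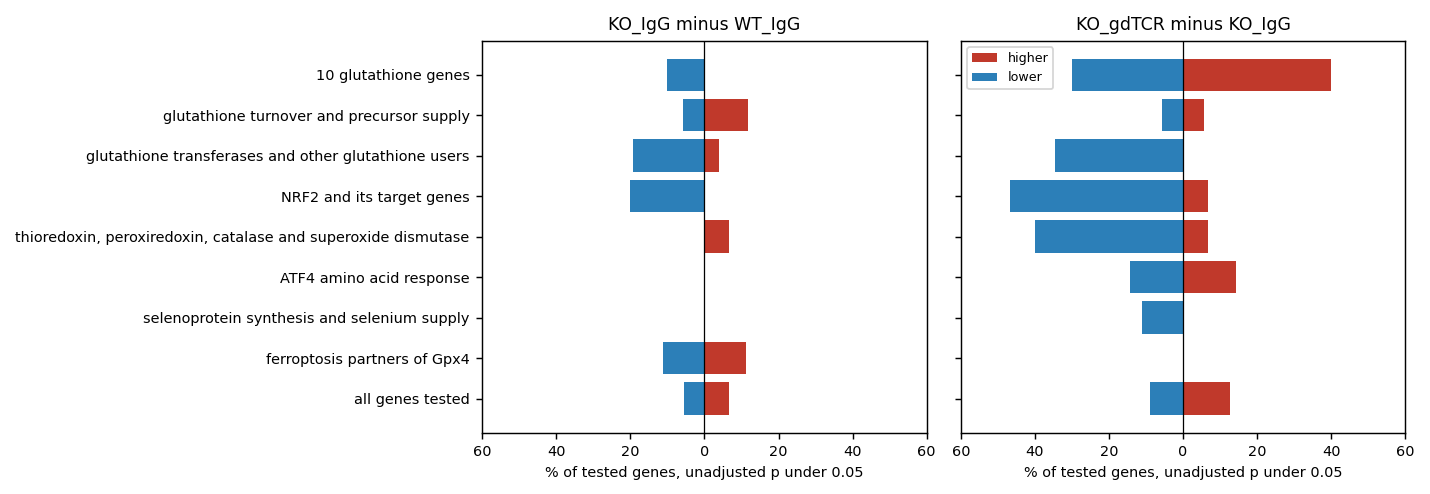
Share of the tested genes of each list with an unadjusted p under 0.05 (x axis, %; red to the right for higher, blue to the left for lower) in the knockout (left) and blockade (right) comparisons, beside all genes tested in the bottom bar. In the blockade, 7 of 15 NRF2 genes and 9 of 26 glutathione users were lower, against 9% of all genes. The blockade bar of the glutathione genes themselves counts Gpx2, which is given as a description.

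The control cohorts, both of WT tumors with isotype antibody, also differed on these lists at an unadjusted p under 0.05. Of the 15 NRF2 genes 7 were lower and 2 higher in WT_IgG than in IgG, of the 15 thioredoxin genes 6 and 0, and of the 14 ATF4 genes 5 and 1, against 9.11% of all genes lower and 9.49% higher. Genes on both the NRF2 and the thioredoxin list, such as Prdx1, count in both. By library totals these counts were 4 and 3, 3 and 1, and 4 and 1, while 790 of all genes were lower and 2382 higher. Cell type markers separated the cohorts too: the adipocyte sum was 305 to 417 CPM in WT_IgG against 40.9 to 93.9 CPM in IgG. The macrophage sum was 1722 to 2283 against 2030 to 2876 CPM, with Adgre1 lower in every WT_IgG tumor than in any IgG tumor. The other macrophage markers, Cd68, Csf1r, C1qa, C1qb and Mrc1, overlapped. The part of the adipocyte and macrophage markers in these counts was not tested. The iron storage gene Fth1 was at 46634 ± 9678 against 77139 ± 12182 normalized counts without overlap (n = 4 and 5; limma, adjusted p = 0.125). Prdx4 differed by -0.94 (SE 0.18; adjusted p = 0.0811) and Slc3a2, the heavy chain partner of Slc7a11, by -0.70 (SE 0.22; adjusted p = 0.150). In the neutralization, which chose the set, list medians lay between -0.14 (ATF4) and 0.06 (other peroxidases), against 0.00188 for all genes. Single genes stood far from these medians: Ftl1, the ferritin light chain, was at 4900 ± 2432 normalized counts with anti-IL-38 against 734 ± 567 in IgG without overlap, 9.02-fold higher, and Phgdh, of serine synthesis, at 79.0 ± 48.4 against 15.9 ± 12.6 with overlap, 5.87-fold higher (SD, n = 6 and 5). Ftl1 has near-identical copies in the genome among which reads may be split. Both are descriptions from the contrast that chose the set.

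Scaling by library total moved the median of all genes by more than 0.1 in the blockade, to -0.15, and between the control cohorts, to 0.13. Of genes with an unadjusted p under 0.05, 58.4% were higher in the blockade by the deposited scaling, 33.2% by library total and 43.8% by edgeR. Between the control cohorts these shares were 51.0%, 75.1% and 46.4%. The signs of all 10 members in the blockade were the same under both rescalings.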

How the data were processed

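Tumor RNA was measured by QuantSeq 3′ mRNA sequencing (single reads). The authors deposited signal in the form of normalized counts, that is, reads over a single size factor per library, in a table of 19 libraries and, separately, a table of 8; the 4 KO_IgG libraries stand in both. The submitters' processing notes name STAR, HTSeq, DESeq2 and GRCm39, with no versions. Whole reads were recovered for 100% of values (tolerance 0.0001%); in WT_IgG replicate 1, where 1 read was worth 0.996, this could not be distinguished from rounding. Symbols and coordinates came from GENCODE M21 on GRCm38 (47224 of 47643 identifiers) and promoters from RefSeq (GRCm38.p6).

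Tests within a table were two-sided and used limma 3.58.1 (R 4.3.3), with a trended eBayes prior, on log2(normalized count + 1), for genes with a mean of at least 5 in the compared libraries, with Benjamini-Hochberg adjustment over all genes and a threshold of 0.05. Fold changes are on that scale and understate those of low genes. The members and lists were chosen with earlier results of these data known. All 10 members are named, as are, per list and comparison, up to 4 genes with the smallest unadjusted p under 0.05; the text gives those of the knockout and blockade that it describes. In simulated data with 200 genes changed by 2 on the log2 scale, 198 to 200 were recovered per comparison, with 7 to 11 false calls. There the spread was set by a formula and not taken from these tumors. The changed genes were drawn from those with higher counts, and libraries differed only in depth. This checks the fit and does not measure its power in these tumors. Alternatives were pseudocounts of 0.5 and 5, no filter or a minimum mean of 20, library totals, TMM rescaling, edgeR 4.0.16, DESeq2 1.42.0, a replicate block and leaving out each library.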

Additional observations from a re-analysis of the deposited data

Results flagged for a closer look

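In 5 of 50 sets of values (a member in a group) 1 library stood far from the others by Dixon's test at 95%; chance flags about 1 in 20 sets. Gclc was at 46.9 CPM in IgG replicate 4 against 31.4 to 33.6 in the other 4. Gss was at 17.7 CPM in KO_gdTCR replicate 4 against 14.03 to 14.5. Gpx2 was at 2.31 CPM (32 reads) in anti-IL-38 replicate 2 against 0 to 0.542, and at 0.617 CPM (8 reads) in KO_IgG replicate 2 against 0.315 to 0.348. Gpx3 was at 141.9 CPM in KO_IgG replicate 3 against 77.8 to 87.6. Slc7a11 in KO_IgG replicate 4, at 1.62 CPM, did not pass this test.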

How the results depend on the processing

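Of 716 alternative values of the members' fold changes, 693 kept their direction and their side of the threshold, or, without a test, moved by less than 1 SD. The values without a test are those of the neutralization, 199 of the 693, and of Ggt1 between the control cohorts. Leaving out 1 library cannot move a group mean by 1 SD. For such values the outcome was fixed in advance and does not measure stability. The 5 that became called were in the blockade, Slc7a11, Gpx1 and Gclm without KO_IgG replicate 4 and Slc7a11 and Gpx1 with DESeq2, as given above. The 18 that changed sign were near 0. In the blockade Gss ranged from -0.083 to 0.019 when 1 library was left out, the highest without KO_gdTCR replicate 2. Between the control cohorts, the replicate block gave -0.0041 for Gclc and 0.0089 for Gss, and library totals 0.059 for Gss and 0.082 for Gsr. Leaving out 1 library gave -0.0041 to 0.13 for Gclc, -0.17 to 0.023 for Gss, -0.16 to 0.17 for Gsr, -0.92 to 0.23 for Gpx2 and -0.019 to 0.21 for Gpx3. The cause was not tested.

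Over all genes, the neutralization gave 0 calls (1682 at an unadjusted p under 0.05), 75 with DESeq2, 1 with the replicate block and 0 to 6 without 1 library. The knockout gave 1 call, 0 with edgeR, 298 with DESeq2, 0 with the replicate block and 0 to 7 without 1 library. The blockade gave 0 calls (3570 unadjusted; 0 with edgeR), 1024 with DESeq2, 0 with the replicate block and 0 to 2357 without 1 library, the highest without KO_IgG replicate 4. The control cohorts gave 16 calls, 7 with a pseudocount of 0.5, 30 by library totals, 742 with DESeq2, 36 with the replicate block and 0 to 45 without 1 library.

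The count of members with an unadjusted p under 0.05 in the knockout was 1, 2 by library totals, 2 with DESeq2, 3 with the replicate block and 1 to 3 without 1 library. In the blockade, with Gpx2 counted although it is a description, it was 7, 6 with TMM factors (without Gclc), 5 by library totals (without Gclc and Gpx3) and 4 to 6 without 1 library. Members with an adjusted p under 0.05 in the blockade numbered 2 with DESeq2 and 0 to 3 without 1 library. Replicate numbers are shared by the groups, but libraries with the same number did not deviate together (correlations of -0.17 to 0.08), so they share only a number. With TMM factors over 23 libraries, 8 of 10 members kept their highest group; Gss and Gpx2 did not. For Ggt1 the neutralization difference was 2.11 to 2.88 without 1 library, a description only, since this difference chose the set. Gpx2, with 0 to 34 reads, and Gpx4, with 8 to 90, are limited by depth.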
